A study of Mus musculus with 6 samples.

Results

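The levels of 10 genes of the smooth muscle contractile apparatus were compared in mouse embryonic stem cells (ESCs) with and without the microRNA miR-302. These are the smooth muscle actin gene Acta2, the transgelin genes Tagln and Tagln2, the calponin genes Cnn1, Cnn2 and Cnn3, the tropomyosin genes Tpm1, Tpm2 and Tpm4, and the myosin light chain gene Myl9. The genes were picked from these families around the large difference of Acta2 and Tagln between miR-302 and control arrays. All 10 were measured, among 22180 genes in all. Because that difference chose them, their values between the groups are a description, and no test of that difference supports them.

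All 6 samples were Dgcr8-/- ESCs, which lack the protein that works with the Drosha nuclease to cut primary microRNAs and so make no canonical microRNAs. A control hairpin (labelled shctrl) was carried by 3 of them. The other 3 carried sh-miR-302, a hairpin giving mimics of miR-302, a microRNA family abundant in pluripotent cells. The labels state neither the ESC line, the number of clones nor which miR-302 sequence was used. Each sample was hybridised to 1 single-colour expression array, and values are log2 levels after RMA, so a difference of 1 is a 2-fold change. With 3 arrays in each group, precision is limited throughout. Over all genes, miR-302 replicate 1 stood apart: it correlated with the other miR-302 arrays at r = 0.990, while those correlated with each other at 0.996 (Pearson, across genes, which are not independent). Differences of the members and counts over lists that it moved are given with and without it.

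Smooth muscle cells shorten when myosin pulls on actin filaments. Phosphorylation of the myosin regulatory light chain, which Myl9 encodes, switches this on, while tropomyosins lie along the actin filament and calponins and transgelins bind it. Many of these genes are controlled by serum response factor (SRF), which binds a DNA element called the CArG box together with cofactors of the myocardin family. The same genes are also used outside smooth muscle, in stress fibres of spreading epithelial and mesenchymal cells.

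The agent and the promoters are shown here because the members moved with the agent and belong to a gene class known for CArG boxes. RefSeq (build GRCm38.p6) lists mature miR-302 sequences on chromosome 3. Those of miR-302b (chr3:127545275-127545297, plus strand) and miR-302d (chr3:127545665-127545687, plus strand) share the seed (bases 2 to 8, in capitals). The seed of miR-302c (chr3:127545406-127545427, plus strand) is shifted along the same run by 1 base.
mmu-miR-302b-3p: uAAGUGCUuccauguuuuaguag
mmu-miR-302d-3p: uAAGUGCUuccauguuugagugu
mmu-miR-302c-3p: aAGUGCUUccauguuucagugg

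RefSeq promoters were found for 9 of the 10 members, Tagln being the exception, and the 250 bases before each annotated start were searched on both strands. An exact CArG box was present in 2 of the 9, Cnn2 and Myl9, and in 1.47% of all 32851 promoters. When 1 of the 6 inner bases was allowed to differ, 3 of the 9 held a match, against 8.59% of all promoters, and the third was Acta2. The MCAT element (CATTCC or its reverse complement GGAATG), which TEAD factors bind, was present in Tagln2, Tpm1 and Acta2 and in 12.6% of all promoters. The Cnn1, Cnn3, Tpm2 and Tpm4 windows held neither motif by these rules. A match is a description of letters, and says nothing of whether a factor was bound. The promoters with a CArG match follow, with CArG matches and MCAT elements in capitals and the last base next to the annotated start. In Acta2 the capitals mark, from left to right, an MCAT element and CArG matches ending 75 and 25 bases before the start. In Myl9 they mark the exact box, ending 152 bases before the start, and a match with 1 inner base changed, ending 90 bases before it. In Cnn2 the single exact box ends 47 bases before the start.
Acta2, chr19:34255374-34255623, minus strand: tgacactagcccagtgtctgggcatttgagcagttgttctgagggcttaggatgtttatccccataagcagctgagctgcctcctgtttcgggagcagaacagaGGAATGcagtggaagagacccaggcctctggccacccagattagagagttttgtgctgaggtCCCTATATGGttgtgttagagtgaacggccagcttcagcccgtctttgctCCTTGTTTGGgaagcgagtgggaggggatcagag
Cnn2, chr10:79988350-79988599, plus strand: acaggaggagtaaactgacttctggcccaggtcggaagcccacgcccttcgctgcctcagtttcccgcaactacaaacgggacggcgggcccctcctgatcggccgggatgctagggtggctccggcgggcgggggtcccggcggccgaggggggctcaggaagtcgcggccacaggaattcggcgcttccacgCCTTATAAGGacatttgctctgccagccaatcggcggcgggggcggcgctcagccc
Myl9, chr2:156775214-156775463, plus strand: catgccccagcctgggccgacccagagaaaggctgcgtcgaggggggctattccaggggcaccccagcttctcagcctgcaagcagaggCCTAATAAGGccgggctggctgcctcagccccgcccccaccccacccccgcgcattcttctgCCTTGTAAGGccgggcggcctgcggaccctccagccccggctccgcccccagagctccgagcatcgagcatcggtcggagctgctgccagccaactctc

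With miR-302, the level of 8 of the 10 genes was higher by 0.93 to 3.87 on the log2 scale, and that of Tagln2 and Cnn3 differed by 0.02 and 0.13. The median of the 10 differences was 1.76, beside 0.01 over all genes tested. In the limma fit over all genes, 8 members lay under an adjusted p of 0.05 as higher and none as lower. This count follows from how the members were picked, so it is a description and no test of them. Of all 22180 genes, 7.18% were called higher and 9.25% lower at this threshold. At least a 2-fold rise was reached by 7 members and by 1.18% of all genes. These shares are given for scale only, and nothing is read from them. Bulk arrays cannot tell a few cells with much of a transcript from many cells with little.

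**Figure D1:**
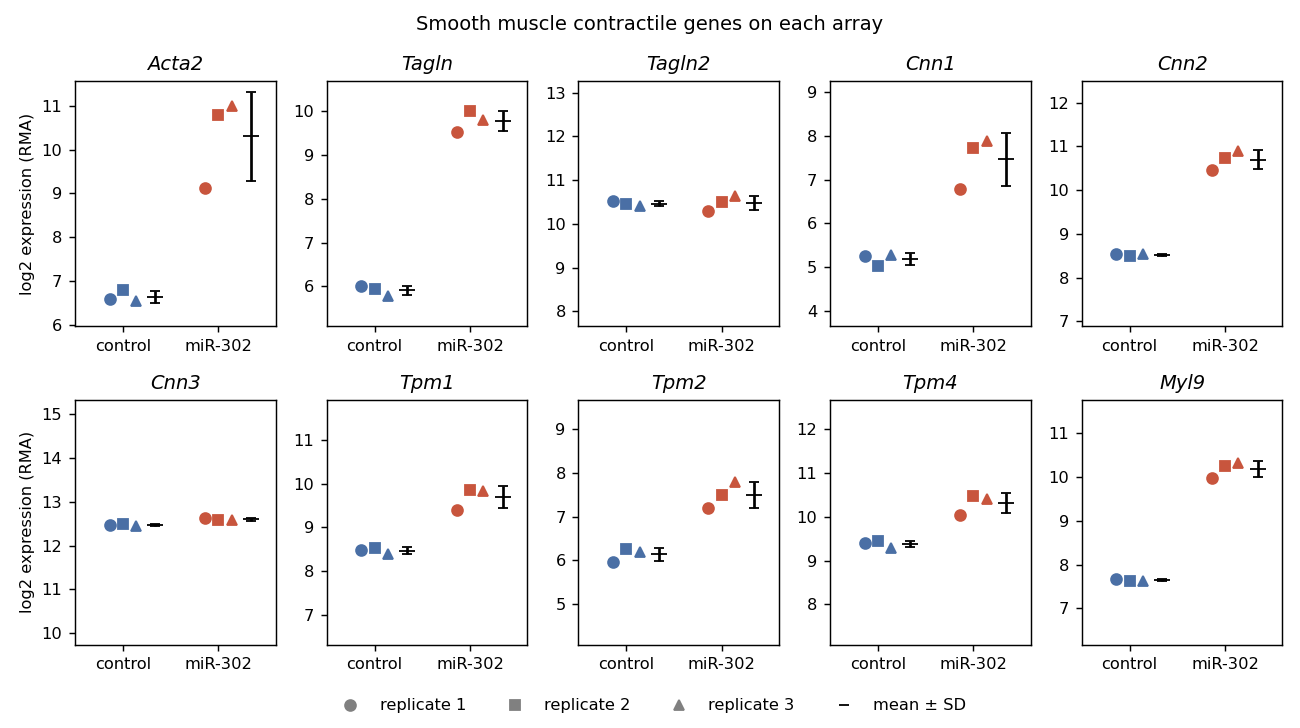
The plot gives the log2 level of each of the 10 genes (vertical axis, RMA values; the span is the same in each panel) on the 3 control and 3 miR-302 arrays, with symbols for the replicate number and the mean ± SD beside them. The groups overlap for Tagln2 alone, and miR-302 replicate 1 (circle) is the lowest miR-302 array for every gene but Cnn3.

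Acta2 encodes the actin that forms the thin filaments of smooth muscle. Its log2 level was 6.58, 6.80 and 6.55 in control replicates 1, 2 and 3, and 9.13, 10.80 and 10.99 in miR-302 replicates 1, 2 and 3. The groups were separated by 2.33, and miR-302 replicate 1 lay well below the other two. The difference was 3.66 ± 0.46 (moderated SE), which is 12.7-fold, and 4.25 ± 0.11 or 19.0-fold without miR-302 replicate 1.

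Tagln encodes transgelin, also called SM22 alpha, which cross-links actin filaments and is widely used as an early smooth muscle marker. Its level was 6.0, 5.94 and 5.79 in the control samples and 9.54, 10 and 9.80 with miR-302. These control values lie little above the arrays' medians of 5.6 to 5.62 over all rows, and whether they exceed background was not tested. The size of the difference holds only against that level. The 3 miR-302 arrays lay within 0.46 of each other, 3.54 above the highest control array. The difference of 3.87 ± 0.13, or 14.6-fold, was the largest of the 10 over all arrays. Without miR-302 replicate 1 it was 3.99 (15.9-fold), below the 4.25 of Acta2. Tagln2, which encodes the broadly expressed paralog transgelin-2, was 10.52, 10.45 and 10.41 in control cells and 10.30, 10.50 and 10.63 with miR-302, so the groups overlapped (difference 0.02 ± 0.10). A second array row of Tagln2 read 6.45 to 6.74 in control cells and 6.80 to 6.88 with miR-302. These groups did not overlap, but the difference of 0.23 ± 0.10 did not pass in a fit over all array rows (limma, adjusted p = 0.195).

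Calponins bind actin and dampen the ATPase of actomyosin. Cnn1, the calponin gene typical of differentiated smooth muscle, was 5.25, 5.02 and 5.27 in control cells and 6.78, 7.72 and 7.89 with miR-302. These control values lie below the arrays' medians of 5.6 to 5.62 over all rows, and a level as low as this cannot be told from background. The difference from that level was 2.28 ± 0.28 (4.87-fold), and 2.62 without miR-302 replicate 1, and its size holds only against a level that may be background. The same limit holds for Actc1, Itga8, Lmod1, Ankrd1, Rgs5, Hand1, Plac1 and Mir466g, described further on, whose control means also lay below the arrays' medians. It holds too for Actg2, Mylk, Myocd and Col1a2, which did not pass. At such a level a lack of change may be background as well. Control means of Tpm2, Fhl2, Tgfb1i1, Eomes and Ascl2, among others, lay near or little above the arrays' medians. Whether these genes were detected in control cells was not tested. Cnn2, found in many motile and contractile cells, was 8.54, 8.50 and 8.53 in control cells and 10.47, 10.73 and 10.89 with miR-302. Its control arrays lay within 0.04 of each other, and the difference was 2.17 ± 0.11 (4.51-fold). Cnn3, the acidic calponin gene, was 12.45 to 12.49 in control cells and 12.58 to 12.63 with miR-302. These groups did not overlap either, but the difference was 0.13 ± 0.06. Cnn3 is not among the 8, and with the intensity trend and robust prior it would be the ninth. Non-overlap in this direction was met by 9 of the 10 members and by 16.8% of all genes.

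Tropomyosins form coiled coils along actin and decide which proteins reach it. Tpm1 was 8.49, 8.53 and 8.38 in control cells and 9.40, 9.86 and 9.82 with miR-302, higher by 1.23 ± 0.13 (2.34-fold). Tpm2, whose products are abundant in muscle, was 5.97, 6.26 and 6.18 in control cells and 7.19, 7.49 and 7.78 with miR-302, higher by 1.35 ± 0.16 (2.55-fold). Tpm4, which encodes a short cytoskeletal tropomyosin, was 9.40, 9.45 and 9.30 in control cells and 10.05, 10.47 and 10.42 with miR-302. Its difference of 0.93 ± 0.12 (1.91-fold) was the smallest of the 8, and its second array row gave 0.87 ± 0.16. Without miR-302 replicate 1 the difference of Tpm4 was 1.06 (2.09-fold). In all 3 genes every miR-302 array lay above every control array, by 0.60 to 0.93.

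Myl9 encodes the regulatory light chain of smooth muscle and non-muscle myosin II. Its level was 7.68, 7.63 and 7.63 in control cells and 9.97, 10.26 and 10.32 with miR-302. The arrays of each group lay close together and 2.29 apart from the other group, with a difference of 2.54 ± 0.10 (5.80-fold).

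The rise over the control mean was not equally complete in the 3 miR-302 samples. Of the 10 genes, 9 were lowest among the miR-302 arrays in replicate 1, Cnn3 being the exception. The 8 genes that were higher fell into a range. In Tagln, Myl9 and Cnn2, replicate 1 reached 91.0%, 87.9% and 85.1% of the log2 rise averaged over replicates 2 and 3. In Tpm2, Tpm1, Tpm4, Cnn1 and Acta2 it reached 70.3%, 68.0%, 62.8%, 61.0% and 58.5%. Of the 261 genes called at least 2-fold higher over the whole array, 195 (74.7%) were lowest in replicate 1 and the median share of the rise was 68.1%, with 34% and 115% at the 10th and 90th percentiles. The 8 members thus lay within the spread of the strongly higher genes. That set itself holds 7 of them, all but Tpm4. Without replicate 1, the 8 differences were 1.06 to 4.25, in place of 0.93 to 3.87.

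**Figure D2:**
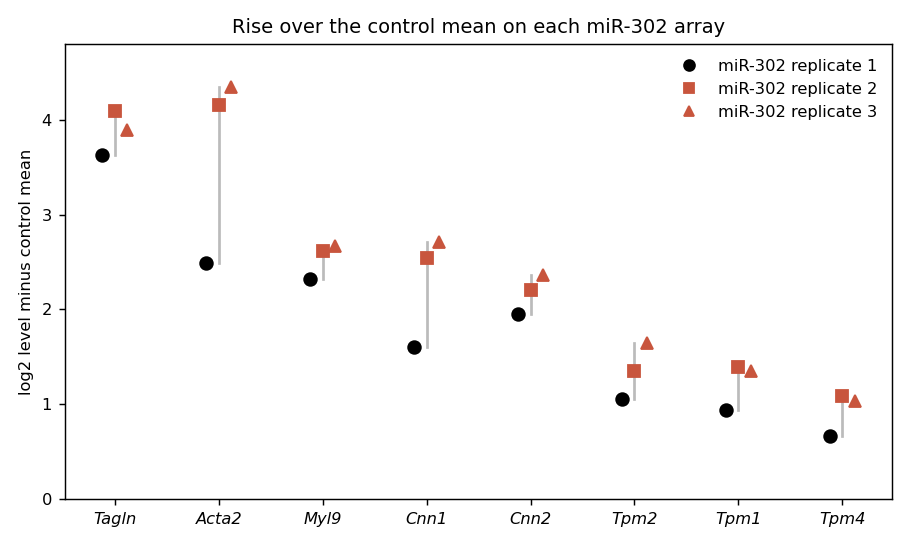
For each of the 8 higher genes (horizontal axis, ordered by mean difference), the plot gives the log2 level on each miR-302 array minus the control mean (vertical axis). Black circles are miR-302 replicate 1: for Acta2 and Cnn1 they sit far below replicates 2 and 3, at 58.5% and 61.0% of their rise, and for Tagln close to them, at 91.0%.

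Other genes of the same families did not all move with the members. Of 11 measured, 3 passed the test as higher, 1 as lower and 7 did not pass, and their median difference was 0.23. Beside this and the list counts below stand the shares of all genes, 7.18% higher and 9.25% lower. Leaving out a single array gave 1 or 2 higher, or 3 where that array was miR-302 replicate 1. Acta1, the skeletal muscle actin gene, rose from 6.45 ± 0.08 (SD, n = 3) to 8.42 ± 0.58, by 1.97 ± 0.27 (limma, adjusted p = 0.00501). Actc1, the cardiac actin gene, rose by 0.83 ± 0.20 (limma, adjusted p = 0.0357) from a low level of 4.63 ± 0.29, a call kept in 2 of 6 fits that left out 1 array. Muscle actin genes are very alike in their coding sequence, and whether signal is shared between their array rows was not tested. Actg2, the enteric smooth muscle actin gene, was 5.0 to 5.56 in control cells and 5.19 to 6.0 with miR-302, and the groups overlapped. The cytoplasmic actin genes Actb and Actg1 differed by 0.37 ± 0.10 and 0.23 ± 0.10 and did not pass, although Actb passed in 5 of 13 alternative fits.

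Tagln3, the neuronal transgelin gene, fell from 7.50 ± 0.05 to 6.39 ± 0.33, a change of −1.11 ± 0.16 (limma, adjusted p = 0.00638). The 3 transgelin genes thus differed by 3.87, 0.02 and −1.11. Tpm3, the remaining tropomyosin gene, differed by 0.03 ± 0.11. Of the other light chain genes, Myl12a was higher by 0.36 ± 0.09 (limma, adjusted p = 0.0408; kept in 1 of 6 fits that left out 1 array). Myl12b, Myl6 and Myl6b differed by −0.04, −0.02 and −0.10 and did not pass.

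**Figure D3:**
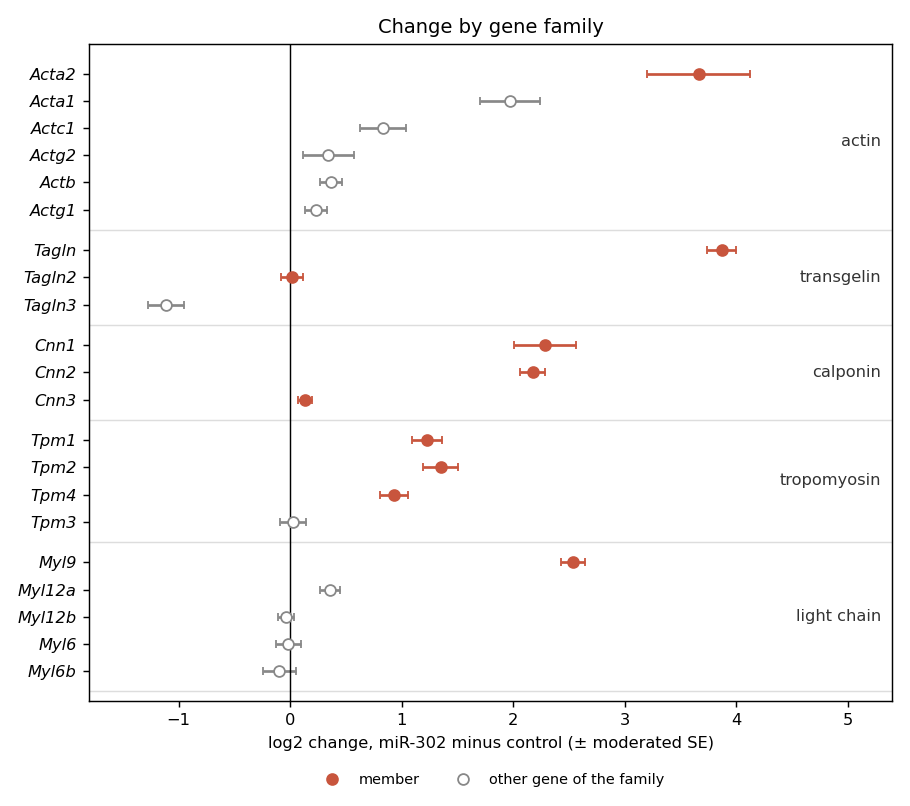
The plot gives the log2 difference, miR-302 minus control, with its moderated SE (horizontal axis) for the 10 members (filled) and 11 other genes of their families (open). Within families the values run from 3.66 to 0.23 for actins, 3.87 to −1.11 for transgelins, 2.28 to 0.13 for calponins, 1.35 to 0.03 for tropomyosins and 2.54 to −0.10 for light chains.

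Of 19 other smooth muscle contractile genes measured, 5 were higher, 1 was lower and 13 did not pass, with a median difference of 0.19. All genes gave 7.18% higher and 9.25% lower. Without miR-302 replicate 1, 5 were higher and 2 lower. Only 8 of the 19 reached the median level over all genes, and among these 3 were higher and 2 lower when that filter was set. Myh11, which encodes the smooth muscle myosin heavy chain and is among the most specific markers of the lineage, was 6.04 to 6.35 in control cells and 6.07 to 6.21 with miR-302. Mylk, the kinase gene for the light chain, was 4.77 to 5.22 and 5.10 to 5.23, and smoothelin (Smtn) differed by 0.19 ± 0.09. None of these 3 passed in any alternative fit that held it; Myh11 and Mylk were below the level filter of 1 of them. Itga8, an integrin gene of contractile mesenchymal cells, rose from 4.70 ± 0.21 to 6.87 ± 0.27, by 2.17 ± 0.16 (limma, adjusted p = 0.000753). Csrp1, a LIM protein gene of actin bundles, Cald1, the gene of the actin-binding caldesmon, and Des, the gene of the muscle intermediate filament desmin, rose by 1.12 ± 0.17, 1.04 ± 0.14 and 1.03 ± 0.14. Lmod1, a smooth muscle actin nucleator gene, rose by 0.59 ± 0.14 from a level of 5.58 ± 0.16, kept in 2 of 6 fits that left out 1 array. Pdlim3, an actinin-binding protein gene, was the gene that fell (−1.62 ± 0.22; limma, adjusted p = 0.0048).

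Of 19 measured genes that regulate myosin, 5 were higher (0.27 to 0.76), Cit was lower (−0.31 ± 0.07) and 13 did not pass. The count of higher genes was 8 without miR-302 replicate 1, 0 without control replicate 1 or 2, and 1 without any of the other 3. Over all genes, 7.18% were called higher and 9.25% lower with all arrays. The higher count over all genes, 1592, became 2484 without miR-302 replicate 1 and 685 to 861 without any other single array. Myh9, the gene of non-muscle myosin IIA heavy chain, was higher by 0.76 ± 0.16, a call kept in 1 of 6 fits that left out 1 array, the one without miR-302 replicate 1. Dapk3, which encodes a kinase of the light chain and of its phosphatase, was higher by 0.58 ± 0.10 and kept its call in 4 of 6 such fits. The others were Arhgef1, Ppp1r12c and Ppp1r14b. On leaving out 1 array, Arhgef1, Ppp1r12c and Cit each kept the call in 1 of 6 fits and Ppp1r14b in 0.

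Srf itself and the genes of its myocardin family cofactors did not pass the test with all arrays. Srf was 9.29 to 9.45 in control cells and 9.40 to 9.84 with miR-302 (difference 0.25 ± 0.12), and passed without miR-302 replicate 1 and with array weights. Myocd, the gene of myocardin, was 5.24 to 5.76 and 5.72 to 6.11 (0.37 ± 0.16), levels near the arrays' median. Mrtfa and Mrtfb, which encode the actin-sensing cofactors, differed by 0.04 ± 0.10 and 0.07 ± 0.06. Of the 21 genes listed as SRF, cofactors and repressors, 4 were higher, 1 was lower and 16 did not pass (median 0.19). Without miR-302 replicate 1, 6 were higher and 2 lower. The shares over all genes, with all arrays, were 7.18% higher and 9.25% lower. Fhl2, a LIM-only cofactor gene, rose from 5.90 ± 0.25 to 7.77 ± 0.62 (1.87 ± 0.30; limma, adjusted p = 0.00905). Tead1, which encodes a TEAD factor that binds MCAT elements, rose from 9.81 ± 0.01 to 10.57 ± 0.14 (0.76 ± 0.09; limma, adjusted p = 0.0031). Csrp1 and Foxo4 were the other higher genes, Foxo4 by 0.43 ± 0.09, and the ternary complex factor gene Elk1 changed by −0.35 ± 0.08, each of the latter pair keeping its call in 2 of 6 fits that left out 1 array.

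Reported SRF targets outside the contractile genes were higher in 9 of 22 cases and lower in 1, with 12 not passing and a median of 0.35. With miR-302 replicate 1 left out, 14 were higher. With any other array left out, 4 or 5 were higher. Over all genes 7.18% were higher and 9.25% lower, and the higher count of 1592 became 2484 and 685 to 861 in the same fits. Ccn1, a secreted matricellular gene that YAP also activates, rose from 8.33 ± 0.15 to 10.13 ± 0.54 (1.80 ± 0.25; limma, adjusted p = 0.00584). Tgfb1i1, the gene of the focal adhesion protein Hic-5, and Flna, the gene of the actin cross-linker filamin A, rose by 1.15 ± 0.18 and 0.55 ± 0.07. The focal adhesion gene Zyx and the genes Ccn2 and Ankrd1 were higher by 1.33 ± 0.30, 1.23 ± 0.31 and 1.24 ± 0.31, and each kept its call in 1 of 6 fits that left out 1 array. With the mean of all its array rows, Ccn2 differed by 0.67 and did not pass (limma, adjusted p = 0.0879). Also kept in 1 of 6 such fits was Wdr1, an actin disassembly gene, at 0.29. Fhl2 and Myh9, described among the cofactors and myosin genes, complete the 9. Egr1, an immediate early SRF target, was the lower gene (−0.42 ± 0.10; kept in 2 of 6).

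**Figure D4:**
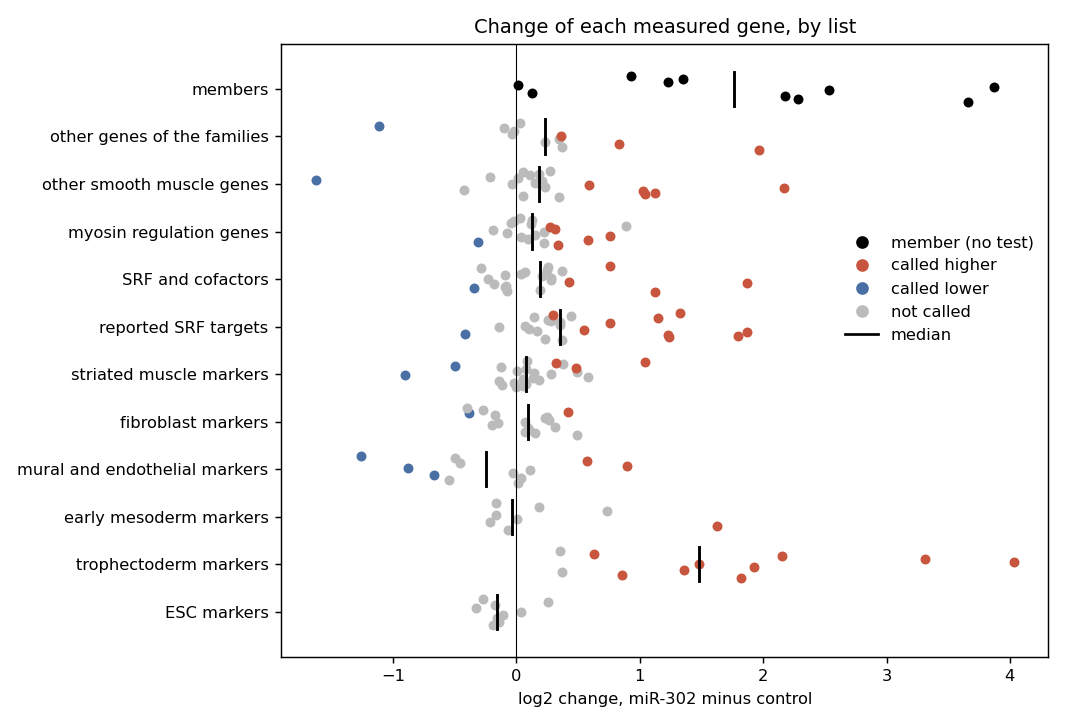
Each point is a measured gene of a list, placed by its log2 difference, miR-302 minus control (horizontal axis), and, outside the members (black, no test), coloured by whether it passed limma's test; black bars are list medians. The members' median is 1.76 and that of the trophectoderm markers 1.48, while the medians of the other lists lie between −0.24 and 0.35.

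Markers of other cell types were read beside these values. For scale, 7.18% of all genes were called higher and 9.25% lower. Over 17 fibroblast markers, 1 was higher and 1 lower, and 1 and 3 without miR-302 replicate 1. Their mean log2 level was 5.76 to 5.77 in control cells and 5.72 to 5.88 with miR-302. The higher gene was Twist1, a mesenchymal transcription factor gene (0.42), and the lower was Thy1, a surface marker gene (−0.38), each keeping its call in 1 of 6 fits that left out 1 array. The collagen genes Col1a1, Col1a2 and Col3a1 differed by 0.49, 0.15 and 0.07 and the filament gene Vim by −0.40, and none of these passed with all arrays. Without miR-302 replicate 1, Col1a1 was higher by 0.68 (limma, adjusted p = 0.0203) and Vim lower (−0.60; limma, adjusted p = 0.00305), and both also passed with array weights.

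Over 23 striated muscle markers, 3 were higher and 2 lower, and 4 and 2 without miR-302 replicate 1, with mean levels of 5.66 to 5.69 and 5.75 to 5.82. As before, 7.18% of all genes were higher and 9.25% lower. Tnnt3, the gene of fast skeletal troponin T, was higher by 1.04 ± 0.17 (limma, adjusted p = 0.0089). The troponin genes Tnnc1 and Tnnt2 were higher by 0.48 and 0.32, Tnnt2 keeping its call in 1 of 6 fits that left out 1 array. The atrial light chain gene Myl7 and the cardiac troponin gene Tnni3 were lower (−0.90 and −0.50). Of 12 mural and endothelial markers, 2 were higher and 3 lower, and 4 and 6 without miR-302 replicate 1 (mean 6.99 to 7.05 and 6.75 to 6.85). Among genes of mural cells, Notch3 and Rgs5 were higher by 0.90 and 0.57 and Cspg4 was lower (−0.67). Vwf, an endothelial gene, and Mcam, a gene of both cell types, were lower (−1.26 and −0.88). On leaving out 1 array, Notch3 and Vwf kept their calls in 6 of 6 fits, Cspg4 in 3, Rgs5 in 2 and Mcam in 1, and with the mean of all its rows Rgs5 did not pass (0.33). Of 8 early mesoderm markers, Hand1, which trophoblast also expresses, was higher by 1.63 ± 0.23 and none was lower, while 3 were higher without miR-302 replicate 1 (mean 5.78 to 5.82 and 5.90 to 6.12). The part of these cell types in the contractile gene values was not tested.

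Trophectoderm markers were higher on the same arrays as the contractile genes. Of 11, 9 were higher and none lower, and 11 were higher without miR-302 replicate 1. Among all genes 7.18% were higher and 9.25% lower. The transcription factor genes Eomes, Gata3 and Ascl2, which had the smallest p of the list, were higher by 1.36, 1.48 and 1.82. Control means of Eomes and Ascl2 were 5.64 and 5.72, near the arrays' medians. Also higher were the keratins Krt18 and Krt8 by 4.03 and 3.31, the placental gene Plac1 by 2.15 and Gata2 by 1.93. Eomes, Gata3, Ascl2 and the keratins kept their calls in 6 of 6 fits that left out 1 array, Plac1 in 2 and Gata2 in 1. The mean log2 level of the 11 was 6.67 to 6.77 in control cells, and with miR-302 it was 7.85 (replicate 1), 8.59 and 8.71. The mean over the 10 contractile genes was 8.05 to 8.11, 9.55, 10.04 and 10.11 in the same order. The part of trophectoderm-like cells in the contractile gene values was not tested. Of 9 ESC markers, none was called in either direction by limma, and 4 had an unadjusted p under 0.05. Without miR-302 replicate 1, 3 were lower. Whether all 9 were detected was not tested. Dppa5a had means of 5.64 in control cells and 5.44 with miR-302, near the arrays' medians. The core pluripotency genes Nanog, Pou5f1 and Sox2 had mean levels of 12.85, 9.28 and 12.01 in control cells and 12.74, 9.32 and 11.68 with miR-302. Sox2 was among the 3 lower without miR-302 replicate 1 (−0.44, limma, adjusted p = 0.00627) and passed in 4 of 13 alternative fits.

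The 5 genes most like Acta2 in pattern over the 6 arrays and the 5 most like Tagln had no gene in common. They were ranked by Pearson's r among the 539 other named genes with group means at least 2-fold apart. With 2 groups this far apart r is high for many genes, and the arrays are shared, so r is given as a description. Nearest to Acta2 were Ahnak, Krt8, Plekhg2, Clcn5 and Krt18 (r = 0.9985 to 0.9988 over 6 arrays). Krt8 and Krt18, the simple epithelial keratins, were both lowest among the miR-302 arrays in replicate 1. It read 10.43 against 12.07 and 12.11 for Krt8, and 9.86 against 11.82 and 11.68 for Krt18. Nearest to Tagln were Bmp1, AU015836, Anxa2, Lamb1 and Mir466g (r = 0.9959 to 0.9984). Bmp1, the gene of a procollagen protease, was 6.41 to 6.61 in control cells and 8.35, 8.52 and 8.38 with miR-302, with replicate 1 close to the other two. Among the members themselves, Tagln was most like Myl9 (r = 0.999) and Acta2 most like Tpm4 (r = 0.996), while Acta2 and Tagln had r = 0.967.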

How the data were processed

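Total RNA of 6 samples was measured on single-colour arrays. The deposited values are log2 levels that the authors made with RMA, per the submitters' processing notes. The RMA version is not given in the sources used here, nor is the log base, which was taken as 2 because RMA uses it. RMA makes array distributions alike, so a shift of all genes together would not show. Groups come from sample titles. The series' text calls the samples of a group biologically independent.

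Of 33649 rows, 23521 name a single gene through the platform annotation, and the row with the highest mean stood for each of 22180 genes. The row for Dgcr8 names a further gene and was not used here. Groups were compared with limma 3.58.1 in R 4.3.3 (lmFit, eBayes, two-sided, Benjamini-Hochberg over all genes, threshold 0.05). SE is the moderated SE, and the fit was tested on simulated data. Beside members, 11 lists with 162 measured genes were used. Members and lists were chosen with earlier results of these data known.

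A rule set 55 genes to be named: the members, up to 3 per list with the smallest p, the 5 nearest in pattern to Acta2 and to Tagln, and Pou5f1, Nanog and Sox2. Some of these, namely Msx2, Tbx6, Dcn, Tfcp2l1 and Zfp42, are not described above. A further 37, such as Srf, Myh11, Gata2, Plac1, Col1a1 and Vim, were singled out after their values were seen. Alternatives were the replicate block, leaving out each array, an intensity trend with a robust prior, a median level filter, the mean of all rows, quantile normalization, median centring and array weights. Promoters and microRNAs come from RefSeq (GRCm38.p6). Figures used matplotlib 3.10.9.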

Additional observations from a re-analysis of the deposited data

How the results depend on the processing

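The counts of members called, 8 higher and 0 lower, lay within 8 to 9 and at 0 in all 13 alternatives (the ninth, with the intensity trend and robust prior, was Cnn3), and the 8 differences kept their direction. Over all genes, 1592 were higher and 2051 lower. Leaving out 1 array gave 685 to 2484 higher and 1043 to 2911 lower, both highest without miR-302 replicate 1, which stood apart. With the replicate number as a block (replicate block) 964 were higher and 1329 lower; deviations of same-numbered arrays correlated at 0.01 to 0.02, so the numbers were not taken to pair samples. Array weights gave 2617 higher.

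For the gene lists, leaving out 1 array gave 1 to 3 other family genes higher. Other smooth muscle genes were 1 to 2 lower on leaving out 1 array, 3 higher of the 8 that the median level filter left of 19, and 2 lower under that filter, the block, the trend, centring or weights. Myosin regulation genes were 0 to 8 higher and 0 to 1 lower on leaving out 1 array, 2 higher and 0 lower with the block, and 8 higher with the trend or weights. SRF and cofactor genes were 0 to 2 lower on leaving out 1 array, 0 lower with the block, 2 lower under the filter, and 7 higher and 2 lower with weights. Reported SRF targets were 4 to 14 higher and 0 to 1 lower on leaving out 1 array, 0 lower with the block and 14 higher with weights. The cause was not tested. The second row of Tagln2 gave 0.23 in place of 0.02, and did not pass either. With any 1 mismatch allowed, 4 of the 9 members searched had a CArG match in place of 2, beside 18.6% of all promoters in place of 1.47%. Low levels cannot be told from background, as no detection calls were used here.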
